A study of Mus musculus with 10 samples.

Results

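The pericentral zonation genes examined here are Cyp2e1, Cyp1a2, Glul, Oat, Rhbg, Slc1a2, Axin2, Lgr5, Tbx3 and Gulo, 10 of the 55291 genes in the count matrix. They were taken by symbol, as genes known from the zone around the central vein or from Wnt signalling in hepatocytes. The tissue was the right lobe of the liver of 10 female mice, 16 to 20 weeks old, each with a Cas9 allele behind a Lox-Stop-Lox cassette, and its messenger RNA was sequenced in bulk. All of them received an AAV8 virus with a guide RNA and Cre under the hepatocyte TBG promoter, so the control mice carried active Cas9 as well, and the guide was either non-targeting (NTC) or directed at Bap1 (sgBap1). On day 10, mice were given carbon tetrachloride (CCl4), mixed 1:9 with olive oil and dosed at 10 µL per g of body weight, or vehicle, and livers were collected 48 h later. Vehicle went to 2 mice of each genotype (NTC-Veh and sgBap1-Veh) and CCl4 to 3 of each (NTC-CCl4 and sgBap1-CCl4). The total per library ran from 33047904 to 52199904 estimated counts. Levels are given as CPM, counts scaled to a common library total with TMM factors, and 3 counts stood for 0.0511 to 0.112 CPM, a floor that takes in counting error alone. Gene positions are those of GENCODE on GRCm38.

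Hepatocytes differ along the path of blood from the portal vein to the central vein. Endothelial cells of the central vein release Wnt ligands and R-spondins, which act through frizzled and LGR receptors and beta-catenin and keep the pericentral programme on. Pericentral hepatocytes carry out drug oxidation and glutamine synthesis, and their enzyme CYP2E1 turns CCl4 into a toxic radical, which is why this solvent injures the tissue around the central vein.

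Bap1, the gene targeted by the guide, encodes a nuclear deubiquitinase. It was at 34.8 and 34.8 CPM in the NTC-Veh mice, 17.5 and 19.5 CPM in the sgBap1-Veh mice, 30.1, 31.5 and 29.5 CPM in the NTC-CCl4 mice and 16.99, 21.8 and 19.1 CPM in the sgBap1-CCl4 mice. Every sgBap1 liver was below every NTC liver. The log2 fold change was -0.91 (SE 0.12, edgeR adjusted p = 0.0172) with vehicle and -0.65 (SE 0.09, edgeR adjusted p = 0.0307) with CCl4. These calls were sensitive to the setting and to single mice. Both were lost on a scale set by 10 hepatocyte genes (edgeR adjusted p = 0.146 with vehicle and 0.347 with CCl4). With a replicate block they were also lost (0.0713 and 0.0618). The CCl4 call was lost with library size alone as the scale (0.0621) and with only the 2 groups compared (0.0715). The vehicle call was lost without NTC-Veh replicate 2 (edgeR adjusted p = 0.0992) or either sgBap1-Veh mouse (0.115 and 0.051), and over all alternatives its adjusted p ran from 2.99e-07 to 0.146. The CCl4 call was lost without any of the 3 NTC-CCl4 mice (0.147, 0.0782 and 0.0838), without sgBap1-CCl4 replicate 1 or 3 (0.0933 and 0.0549) and without NTC-Veh replicate 1 (0.05), with a range of 5.73e-06 to 0.347. Cre was driven in hepatocytes, so that the other liver cells were not the target of the guide. The hepatocyte marker Alb was abundant in all livers, at 116166 and 92935 CPM in the NTC-Veh mice and at 55036 to 116166 CPM over the 10 livers.

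The liver of sgBap1-CCl4 replicate 2 stood apart by its fat cell genes. Its summed level of the 5 adipocyte genes Adipoq, Plin1, Lep, Cfd and Fabp4 was 471 CPM, against 4.88 to 15.8 CPM in the other 9 livers, and Fabp4, which other liver cells also express, was the most abundant. Adipoq, the adipocyte hormone adiponectin, was at 36.4 CPM and Plin1, a lipid droplet coat protein, at 34.5 CPM there, while neither exceeded 0.0425 CPM elsewhere. Glul, the Wnt9b range, the stellate sum and several list counts are also given without this liver.

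The levels of the pericentral genes in uninjured tissue differed widely per kilobase of exon. In NTC-Veh livers, Cyp2e1 was at 4516 ± 299 CPM per kb (SD, n = 2). Glul, Oat, Cyp1a2 and Gulo followed at 503 ± 62.2, 436 ± 90.1, 372 ± 86.7 and 299.9 ± 21.9 CPM per kb, and between mice Glul overlapped Oat, Oat overlapped Cyp1a2 and Cyp1a2 overlapped Gulo. Below them came Slc1a2 at 19.6 ± 2.77, Rhbg at 6.73 ± 0.818, Tbx3 at 5.67 ± 2.57, Axin2 at 2.45 ± 0.708 and Lgr5 at 1.21 ± 0.168 CPM per kb, of which Rhbg and Tbx3 overlapped. After CCl4 the order changed. In NTC-CCl4 livers Cyp1a2 was at 144 ± 53.4 CPM per kb (SD, n = 3), Gulo at 91.6 ± 10.6 and Cyp2e1 at 86.02 ± 21.6, with neighbours overlapping, and Slc1a2 was the lowest at 0.04396 ± 0.0103 CPM per kb.

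**Figure D1:**
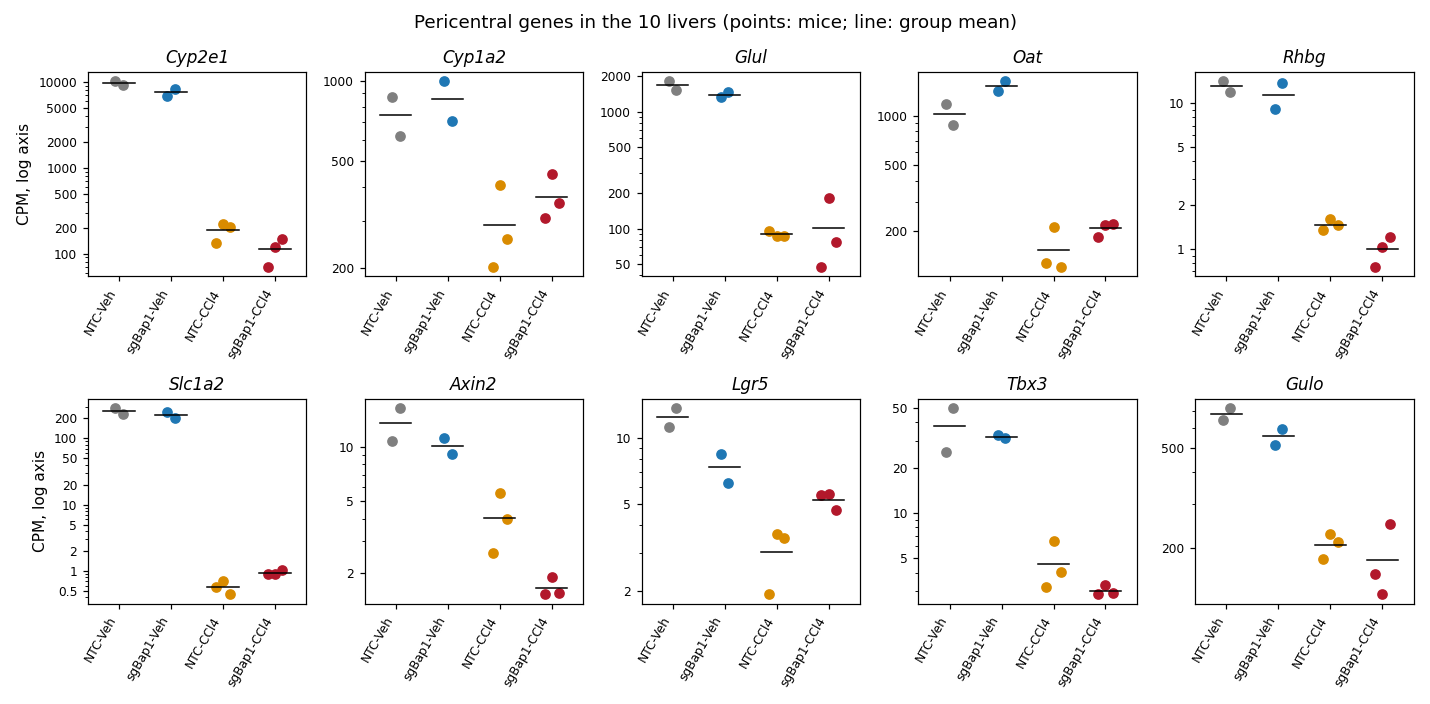
Level of each pericentral gene in every liver, in CPM on a log axis, by group (2 mice in each vehicle group and 3 in each CCl4 group). Points are mice and lines are group means, and in all 10 panels every CCl4 liver lies below every vehicle liver of the same genotype.

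RefSeq promoter entries on GRCm38.p6 matched 6 of the 10 genes, Cyp2e1, Cyp1a2, Glul, Oat, Slc1a2 and Axin2, and the others are Rhbg, Lgr5, Tbx3 and Gulo. The 250 bases before each start were searched on both strands for the TCF/LEF motifs CTTTGAT and CTTTGTT, the HNF1 half-site GTTAAT and the dioxin receptor core GCGTG. Only Slc1a2 held a TCF/LEF match, ATCAAAG, at bases -207 to -201 from its start, and 0 of the 6 held either other motif. Among all 32851 RefSeq entries of the same length, 8.06% held a TCF/LEF motif, 6.43% the HNF1 half-site and 28.2% the core GCGTG. A match describes letters and is no binding site, and no match says only that these letters are not in this window. The 3 upstream sequences below are shown for the gene with the deepest fall (Slc1a2), the CCl4-activating enzyme (Cyp2e1) and a Wnt feedback gene (Axin2), each as the longest stretch of the window outside annotated exons, with the TCF/LEF match in capitals. The RefSeq start of Slc1a2 lies within the span of the gene in GENCODE, which begins further upstream. The sequences run 5′ to 3′ on the + strand at chr2:102706188-102706355, chr7:140763569-140763738 and chr11:108920099-108920348.
Slc1a2: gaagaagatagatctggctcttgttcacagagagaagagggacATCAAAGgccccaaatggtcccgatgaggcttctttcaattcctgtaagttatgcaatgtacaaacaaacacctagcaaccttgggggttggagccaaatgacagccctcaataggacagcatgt
Cyp2e1: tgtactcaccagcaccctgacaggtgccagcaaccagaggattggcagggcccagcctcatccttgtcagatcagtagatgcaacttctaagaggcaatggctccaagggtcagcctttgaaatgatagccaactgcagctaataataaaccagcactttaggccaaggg
Axin2: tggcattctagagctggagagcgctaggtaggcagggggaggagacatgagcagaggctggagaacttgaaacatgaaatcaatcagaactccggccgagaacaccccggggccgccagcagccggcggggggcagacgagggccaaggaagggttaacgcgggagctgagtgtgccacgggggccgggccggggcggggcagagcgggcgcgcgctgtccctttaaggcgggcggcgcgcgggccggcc

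CCl4 was compared with vehicle in each genotype to ask what the injury does to the pericentral genes. All 10 genes passed the low-count filter, and in NTC livers all 10 fell (edgeR quasi-likelihood test, adjusted p under 0.05), where 26.3% of the 17015 genes tested were called lower. In sgBap1 livers 9 of 10 fell, where 27.7% were called lower, and Lgr5 was not called. Every CCl4 liver was below every vehicle liver for all 10 genes in both genotypes, which held for 35.0% of tested genes in NTC and 34.9% in sgBap1 livers. Fewer cells of a type and less RNA per cell cannot be told apart in bulk tissue. The median log2 fold change over the 10 genes was -2.89 in NTC and -3.14 in sgBap1 livers, against 0.03 and 0.04 over all tested genes. Of all tested genes 4679 (27.5%) rose and 4472 fell in NTC livers, a share of 51.1% higher. With library size alone as the scale this became 8462 and 2030 (80.7% higher) and the median of all genes shifted by 0.47 on the log2 scale, while the 10 genes were all still called lower. In sgBap1 livers 4940 (29.0%) rose and 4716 fell (51.2% higher), against 78.5% higher with library size alone (a shift of 0.48), where 8 of the 10 were called. A scale set by 10 hepatocyte genes of no zone, added after the data were seen, gave 81.9% and 72.7% higher, shifts of 0.49 and 0.36, and called 9 and 8 of the 10.

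The P450 enzymes fell by very different amounts. Cyp2e1 (ENSMUSG00000025479.9, + strand of chr7:140763739-140774987) encodes the P450 that activates CCl4 and was at 10200.3 and 9289 CPM in the NTC-Veh mice, 6799 and 8321 CPM in the sgBap1-Veh mice, 133, 222 and 202 CPM in the NTC-CCl4 mice and 69.4, 118 and 147 CPM in the sgBap1-CCl4 mice. The CCl4 livers were far below the vehicle livers, and the CCl4 livers of the genotypes overlapped. Cyp2e1 fell 52.5-fold in NTC livers (log2 fold change -5.71, SE 0.34, edgeR adjusted p = 1.91e-06) and 67.7-fold in sgBap1 livers (log2 fold change -6.08, SE 0.34, edgeR adjusted p = 1.21e-06). Cyp1a2 (ENSMUSG00000032310.4, - strand of chr9:57676937-57683703), a P450 of caffeine and arylamine oxidation, was at 871 and 624 CPM in the NTC-Veh mice, 997 and 709 CPM in the sgBap1-Veh mice, 202, 409.8 and 258 CPM in the NTC-CCl4 mice and 307, 450.5 and 349.7 CPM in the sgBap1-CCl4 mice. Its CCl4 livers kept a larger share of the vehicle level than those of Cyp2e1. Cyp1a2 fell 2.58-fold in NTC (log2 fold change -1.37, SE 0.30, edgeR adjusted p = 0.00356) and 2.31-fold in sgBap1 livers (edgeR adjusted p = 0.00659). The Cyp1a2 call depended on the setting. Without sgBap1-Veh replicate 1 the sgBap1 log2 fold change was -0.94 (edgeR adjusted p = 0.0649), and with library size alone -0.72 (0.0718). On the hepatocyte scale the adjusted p was 0.0595 in NTC and 0.0691 in sgBap1 livers. Over all alternatives it ran from 5.26e-06 to 0.0595 in NTC and from 6.17e-05 to 0.0718 in sgBap1 livers.

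Glul, Oat, Rhbg and Slc1a2 serve the handling of ammonia and amino acids. Glul (ENSMUSG00000026473.15, + strand of chr1:153899944-153909723) encodes glutamine synthetase, the classic marker of the last hepatocytes before the central vein. It was at 1819 and 1527 CPM in the NTC-Veh mice, 1325 and 1460.4 CPM in the sgBap1-Veh mice, 95.98, 87.3 and 87.1 CPM in the NTC-CCl4 mice and 46.9, 182 and 77.4 CPM in the sgBap1-CCl4 mice. The 3 NTC-CCl4 livers were nearly equal, whereas the sgBap1-CCl4 livers were spread, with the liver rich in fat cell genes highest. Glul fell 18.6-fold in NTC livers (log2 fold change -4.21, SE 0.48, edgeR adjusted p = 0.000124) and 13.6-fold in sgBap1 livers (log2 fold change -3.77, SE 0.47, edgeR adjusted p = 0.000201). Without replicate 2 the sgBap1-CCl4 mean was 62.1 ± 21.5 CPM (SD, n = 2) in place of 102 ± 70.8 CPM (SD, n = 3), and the log2 fold change was -4.49 (edgeR adjusted p = 7.45e-07). Adipocytes also express glutamine synthetase, and the part of the adipocyte genes in this value was not tested beyond this comparison.

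Oat (ENSMUSG00000030934.9, - strand of chr7:132557478-132576398), ornithine aminotransferase, was at 1179 and 878 CPM in the NTC-Veh mice, 1409 and 1618 CPM in the sgBap1-Veh mice, 127, 209.6 and 119.8 CPM in the NTC-CCl4 mice and 183, 216 and 219.7 CPM in the sgBap1-CCl4 mice. All CCl4 livers were far below the vehicle livers, and its sgBap1-Veh livers were both above the NTC-Veh ones. Oat fell 6.76-fold in NTC (log2 fold change -2.76, edgeR adjusted p = 9.63e-06) and 7.34-fold in sgBap1 livers (log2 fold change -2.87, edgeR adjusted p = 7.14e-06). Rhbg (ENSMUSG00000104445.1, - strand of chr3:88242874-88254709), an ammonium channel of the Rh family, was a low gene at 14.2 and 11.9 CPM in the NTC-Veh mice, 9.12 and 13.8 CPM in the sgBap1-Veh mice, 1.34, 1.597 and 1.46 CPM in the NTC-CCl4 mice and 0.749, 1.03 and 1.21 CPM in the sgBap1-CCl4 mice. It fell 8.87-fold in NTC (edgeR adjusted p = 3.23e-06) and 11.5-fold in sgBap1 livers (edgeR adjusted p = 1.83e-06). The vehicle groups overlapped, and each CCl4 liver of sgBap1 mice was below those of NTC mice. Of its 50-base stretches, 60.4% are shared, most with the overlapping gene model Gm38392, so that reads there cannot be told apart, and Gm38392 itself was at 0.831 CPM or less.

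Slc1a2 (ENSMUSG00000005089.15, + strand of chr2:102658659-102790784), the glutamate transporter GLT-1, showed the deepest fall of the 10. It was at 283 and 232 CPM in the NTC-Veh mice, 246 and 206 CPM in the sgBap1-Veh mice, 0.576, 0.714 and 0.442 CPM in the NTC-CCl4 mice and 0.902, 0.8901 and 1.02 CPM in the sgBap1-CCl4 mice. The CCl4 livers held 17 to 53 counts each, against 5492 to 10401 in the vehicle livers. It fell 436-fold in NTC livers (log2 fold change -8.77, SE 0.18, edgeR adjusted p = 3.11e-09) and 241-fold in sgBap1 livers (log2 fold change -7.91, SE 0.17, edgeR adjusted p = 4.92e-09). Ranked from the lowest fold change of the 17015 genes, it stood at position 9 in NTC and 25 in sgBap1 livers, and Cyp2e1 at 43 and 47.

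Axin2, Lgr5 and Tbx3 are targets of Wnt signalling that also act in it or below it. Axin2 (ENSMUSG00000000142.15, + strand of chr11:108920349-108950783), which feeds back on beta-catenin, was at 10.7 and 16.2 CPM in the NTC-Veh mice, 11.2 and 9.06 CPM in the sgBap1-Veh mice, 2.58, 5.54 and 3.98 CPM in the NTC-CCl4 mice and 1.53, 1.9 and 1.55 CPM in the sgBap1-CCl4 mice. The 3 sgBap1-CCl4 livers lay close together and below all NTC-CCl4 livers. Axin2 fell 3.33-fold in NTC (log2 fold change -1.74, SE 0.28, edgeR adjusted p = 0.000562) and 6.08-fold in sgBap1 livers (log2 fold change -2.60, SE 0.30, edgeR adjusted p = 5.19e-05). Tbx3 (ENSMUSG00000018604.18, + strand of chr5:119670669-119684724), a T-box repressor, was at 25.6 and 49.6 CPM in the NTC-Veh mice, 32.8 and 31.3 CPM in the sgBap1-Veh mice, 3.198, 6.52 and 4.06 CPM in the NTC-CCl4 mice and 2.86, 3.304 and 2.91 CPM in the sgBap1-CCl4 mice. It was lower after CCl4 in each genotype, 8.13-fold in NTC (edgeR adjusted p = 7.04e-05) and 10.6-fold in sgBap1 livers (edgeR adjusted p = 3.82e-05). The antisense gene Tbx3os1, which overlaps it, was at 12.9 and 21.8 CPM in the NTC-Veh mice, 5.68 and 6.59 CPM in the sgBap1-Veh mice and at most 0.416 CPM after CCl4. With vehicle its difference between genotypes was -1.50 on the log2 scale (edgeR adjusted p = 0.138, 0.00565 by DESeq2's Wald test, range 0.00565 to 0.582).

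Lgr5 (ENSMUSG00000020140.15, - strand of chr10:115450311-115587780), a receptor for R-spondins, was the gene not called in sgBap1 livers. It was at 11.2 and 13.6 CPM in the NTC-Veh mice, 8.45 and 6.21 CPM in the sgBap1-Veh mice, 1.94, 3.64 and 3.51 CPM in the NTC-CCl4 mice and 5.47, 5.53 and 4.68 CPM in the sgBap1-CCl4 mice. The NTC groups were far apart, while the sgBap1-CCl4 livers lay just below the sgBap1-Veh livers. Lgr5 fell 4.08-fold in NTC livers (log2 fold change -2.03, SE 0.25, edgeR adjusted p = 7.43e-05). In sgBap1 livers the log2 fold change was -0.49 (95% interval -1.04 to 0.06, edgeR adjusted p = 0.114). Over the alternatives this adjusted p ran from 0.0345, without NTC-CCl4 replicate 1, to 0.976, with library size alone.

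Gulo (ENSMUSG00000034450.8, - strand of chr14:65986786-66009207), the enzyme of the last step of vitamin C synthesis in mice, was at 644 and 714 CPM in the NTC-Veh mice, 513 and 594 CPM in the sgBap1-Veh mice, 181, 228 and 212 CPM in the NTC-CCl4 mice and 159, 132 and 249.99 CPM in the sgBap1-CCl4 mice. Its livers after CCl4 were below all vehicle livers of the same genotype. Gulo fell 3.28-fold in NTC (log2 fold change -1.71, edgeR adjusted p = 0.000161) and 3.07-fold in sgBap1 livers (log2 fold change -1.62, edgeR adjusted p = 0.000215).

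**Figure D2:**
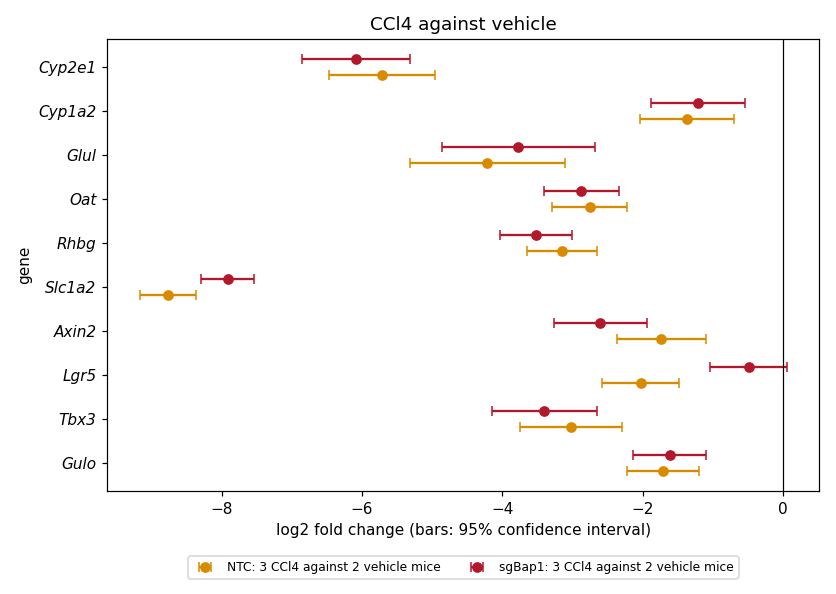
Log2 fold change of each pericentral gene with CCl4 against vehicle, in NTC and in sgBap1 livers (3 against 2 mice each). Bars are 95% confidence intervals, which reach 0 for Lgr5 in sgBap1 livers (-1.04 to 0.06) and for no other gene.

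Lower levels after CCl4 were also found among other hepatocyte genes. The counts below stand beside 26.3% and 27.7% of all tested genes called lower and 27.5% and 29.0% called higher in NTC and sgBap1 livers. With library size alone, 2030 and 2350 of all tested genes were called lower and 8462 and 8596 higher. Of 20 further pericentral genes, 15 fell and 0 rose in NTC livers (median log2 fold change -2.15), and 16 fell in sgBap1 livers (median -1.96), 14 without sgBap1-CCl4 replicate 2. Among them Por, the electron donor of the P450 enzymes, fell with a log2 fold change of -2.12 in NTC and -1.74 in sgBap1 livers, and Cyp27a1, a sterol hydroxylase, with -2.41 and -2.61. Of 15 periportal genes, 12 fell and 2 (Cdh1 and Ctsc) rose in NTC livers (median -1.78), and 13 fell and 1 (Cdh1) rose in sgBap1 livers (median -1.43). Ass1, of the urea cycle, fell with a log2 fold change of -2.50 and -2.26. Of 4 midlobular genes, 2 fell in NTC and 3 in sgBap1 livers (medians -3.24 and -3.36), 2 without that mouse. Of 10 hepatocyte genes of no zone, 5 fell and 0 rose in NTC livers (median -0.58), and 2 fell and 2 rose in sgBap1 livers (median -0.31), where both shares are below those of all tested genes. The calls of this last list depended on tool, scale and single mice. DESeq2's Wald test and the fit without sgBap1-CCl4 replicate 2 each called 6 lower and 2 higher in NTC livers, and library size alone and the hepatocyte scale 3 lower and 2 higher. Over all alternatives the calls ran from 2 to 6 lower and 0 to 2 higher in NTC and 1 to 5 lower and 0 to 4 higher in sgBap1 livers, and leaving out any 1 of the NTC mice also changed the NTC count and any 1 mouse but sgBap1-CCl4 replicate 2 the sgBap1 count. For the other lists, the ranges were 14 to 16 and 14 to 17 of the further pericentral, 12 and 11 to 13 of the periportal and 2 to 3 and 2 to 3 of the midlobular genes called lower in NTC and sgBap1 livers over the alternatives, and 0 and 0, 1 to 2 and 1 to 2, and 0 to 1 and 0 called higher. The midlobular gene called higher was Hamp, which encodes hepcidin, with a log2 fold change of 0.64 in NTC livers (edgeR adjusted p = 0.101). It was called by DESeq2's Wald test (0.0453), with library size alone (0.00486), on the hepatocyte scale (0.00127) and without NTC-Veh replicate 1 (0.0011), with a range of 0.0011 to 0.597, and was at -0.28 in sgBap1 livers (edgeR adjusted p = 0.449, range 0.177 to 0.835), with an interaction of -0.92 (edgeR adjusted p = 0.489). With library size alone the medians of the list of no zone were -0.10 and 0.16, so that its direction in sgBap1 livers depended on the scale. On the hepatocyte scale they were -0.07 and 0.03, which cannot show a direction, as these genes set that scale. The pericentral, periportal and midlobular medians stayed below 0 on each scale. Alb had a log2 fold change of -0.76 in NTC (edgeR adjusted p = 0.00406, 0.0513 without NTC-Veh replicate 1 and 0.0531 with library size alone, with a range of 4.54e-07 to 0.0531) and -0.42 in sgBap1 livers (edgeR adjusted p = 0.0621, but called lower by DESeq2's Wald test at 0.00694, with a range of 0.00694 to 0.692), with an interaction of 0.34 (edgeR adjusted p = 0.702). The lists were not tested against each other.

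**Figure D3:**
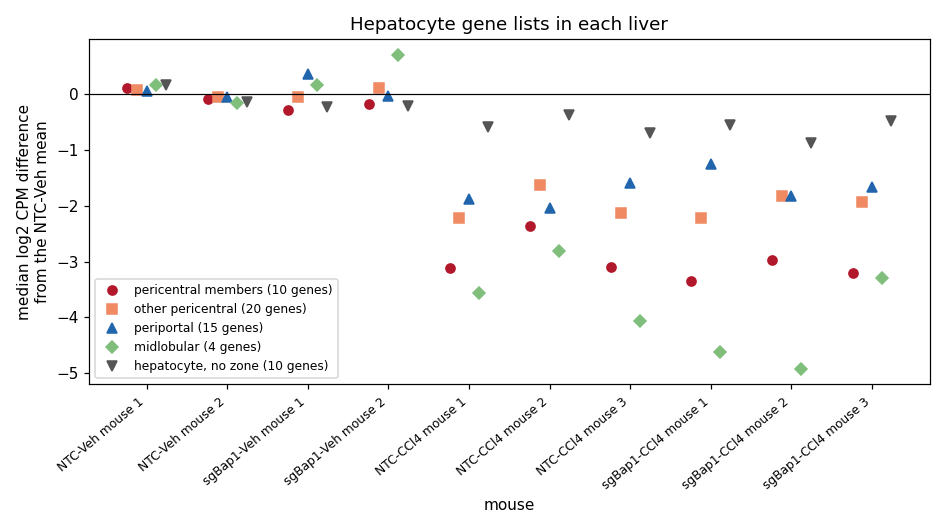
Median log2 CPM difference from the NTC-Veh mean over 5 gene lists, for each of the 10 mice. In the 6 CCl4 livers the 10 pericentral genes lie at -3.34 to -2.36 and the 20 further pericentral genes at -2.23 to -1.63. The 4 midlobular genes lie there at -4.91 to -2.82, the 15 periportal genes at -2.04 to -1.26 and the 10 hepatocyte genes of no zone at -0.87 to -0.37.

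Among the NTC-CCl4 livers, replicate 2 kept the most of the pericentral genes. It had the highest level of the group for 9 of the 10 genes, all but Glul, and for 13 of the 20 further pericentral genes, against 36.5% of all tested genes. Its median difference from the NTC-Veh mean was -2.36 on the log2 scale, against -3.12 and -3.10 in the other NTC-CCl4 livers. The summed level of the 4 proliferation genes Mki67, Top2a, Ccnb1 and Pcna was 189.96 CPM in this liver and 323 and 293 CPM in the other NTC-CCl4 livers. In sgBap1-CCl4 livers, replicates 2 and 3 were each highest for 5 of the 10 genes, and for 1 and 16 of the 20 further pericentral genes, against 36.8% and 36.1% of all tested genes. NTC-CCl4 replicate 2 was picked out after its values were seen, and no test was made of it.

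sgBap1 was compared with NTC in vehicle livers to ask whether Bap1 loss alone changes the pericentral genes. None of the 10 was called by edgeR, DESeq2's Wald test or limma-voom, where 0.523%, 3.64% and 0.147% of the genes tested were called, and 1 of 10 (Lgr5) had an unadjusted edgeR p under 0.05, as did 2139 of the 17015. The groups did not overlap for 5 of the 10 genes, lower in sgBap1 for Cyp2e1, Glul, Lgr5 and Gulo and higher for Oat, where 40.9% of all tested genes did not overlap between these pairs of mice. Lgr5 had a log2 fold change of -0.75 (95% interval -1.35 to -0.15, edgeR adjusted p = 0.272) and Oat 0.56 (-0.02 to 1.14, edgeR adjusted p = 0.417). For Cyp2e1 the value was -0.37 with an interval of -1.10 to 0.37, which holds a lower, an equal and a higher level. Of the 89 genes called, 69.7% were higher in sgBap1 livers, and on the hepatocyte scale, which shifted all genes by 0.29, 95.7% of 253 were. Leaving out any 1 of the 10 mice moved the 89 by over 1.5 times, to between 0 and 150, and called 0 of the 10 genes each time. The median over the 10 genes was -0.25, against 0.02 over all tested genes and -0.24 over the 10 hepatocyte genes of no zone, and it was 0.02 on the hepatocyte scale.

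In CCl4 livers the same comparison asks whether Bap1 loss alters the pericentral genes after injury. By edgeR 0 of 10 were called, where 0.253% of genes were, while 5 of 10 had an unadjusted p under 0.05, as did 2288 of the 17015. DESeq2's Wald test called 2 of 10, Axin2 and Lgr5, where it called 3.08% of genes, and limma-voom 0 of 10, where it called 0.317%. The groups did not overlap for 4 genes, lower in sgBap1 for Axin2 and Rhbg and higher for Lgr5 and Slc1a2, where 20.3% of all tested genes did not overlap. Axin2 was at 4.03 ± 1.48 CPM (SD, n = 3) in NTC-CCl4 and 1.66 ± 0.207 CPM (SD, n = 3) in sgBap1-CCl4 livers, a log2 fold change of -1.28 (SE 0.28, edgeR adjusted p = 0.0964), lower in 3 of 3 livers. Its adjusted p was 0.00103 by DESeq2 and ran from 0.00103 to 0.254 over all alternatives. Lgr5, the receptor, was at 3.03 ± 0.948 CPM (SD, n = 3) and 5.22 ± 0.475 CPM (SD, n = 3), a log2 fold change of 0.79 (SE 0.23, edgeR adjusted p = 0.172), higher in 3 of 3 livers, with a DESeq2 adjusted p of 0.042 and a range of 0.042 to 0.474. Axin2 and Lgr5, both Wnt targets, thus lay in opposite directions, each short of the edgeR threshold. Slc1a2 had 0.67 (SE 0.19, edgeR adjusted p = 0.172) on its few counts, and Cyp2e1 -0.73 (SE 0.27, edgeR adjusted p = 0.284).

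Leaving out the liver rich in fat cell genes turned Glul from 0.18 to -0.54 (edgeR adjusted p = 0.899 and 0.37) in this comparison. Axin2 and Lgr5 were then at -1.39 and 0.74 (edgeR adjusted p = 0.206 and 0.363), and 0 of 10 genes were called. Of the 43 genes called, 58.1% were higher in sgBap1 livers, against 48.6% of 37 with library size alone and 76.7% of 30 on the hepatocyte scale, which shifted all genes by 0.15. Leaving out any 1 of the 6 CCl4 mice moved the 43 by over 1.5 times, to between 1 and 27.

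**Figure D4:**
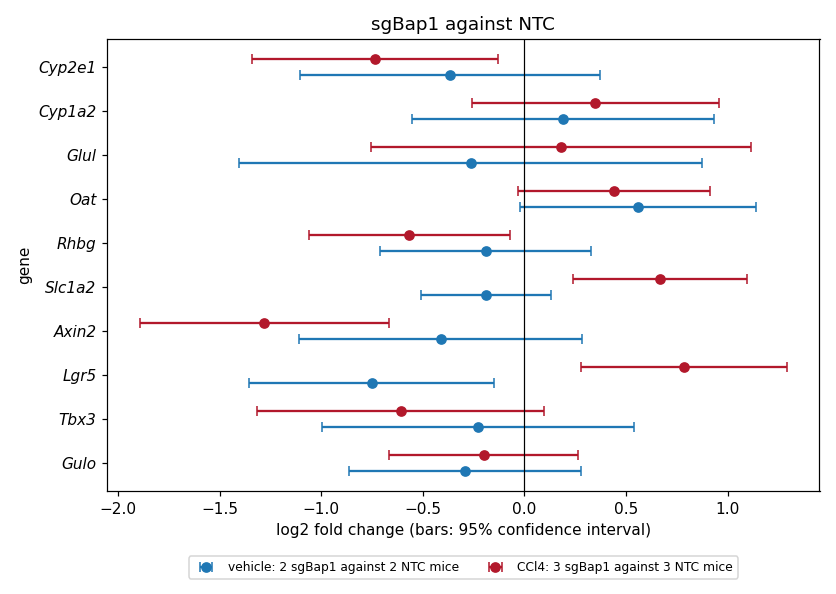
Log2 fold change of each pericentral gene in sgBap1 against NTC livers, with vehicle (2 against 2 mice) and with CCl4 (3 against 3 mice). Bars are unadjusted 95% confidence intervals, and Lgr5 lies at -0.75 with vehicle and 0.79 with CCl4.

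The interaction asks whether the CCl4 effect differs between genotypes. By edgeR it was called for 0 of the 10 genes and for 0% of all tested genes, with 2 of 10 (Lgr5 and Slc1a2) and 1796 of 17015 at an unadjusted p under 0.05. DESeq2's Wald test called 1 of 10, Lgr5, and 2.7% of genes, and limma-voom 0. For Lgr5 the interaction was 1.54 on the log2 scale (SE 0.35, 95% interval 0.75 to 2.33, edgeR adjusted p = 0.13), with a DESeq2 adjusted p of 0.00565 and a range of 0.00565 to 0.338 over the alternatives. By edgeR, the CCl4 effect on Lgr5 is thus not shown to differ between genotypes, although it was called in NTC livers alone. The 0 genes called overall became 12 without sgBap1-CCl4 replicate 2 and 1 each without either sgBap1-Veh mouse or sgBap1-CCl4 replicate 3. Slc1a2 had 0.86 (SE 0.24, edgeR adjusted p = 0.211), and Axin2 -0.87 (SE 0.41, edgeR adjusted p = 0.508).

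The rest of the Wnt pathway gives the setting of the target genes. Of the 4 ligand and R-spondin genes, Wnt2, Wnt9b, Rspo1 and Rspo3, edgeR called 0 in each comparison. Rspo3, the R-spondin of the central vein, was at 6.72 and 6.01 CPM in the NTC-Veh mice, 7.43 and 7.37 CPM in the sgBap1-Veh mice, 5.78, 6.56 and 6.298 CPM in the NTC-CCl4 mice and 7.87, 9.23 and 7.21 CPM in the sgBap1-CCl4 mice. The groups overlapped between vehicle and CCl4, and its log2 fold change with CCl4 was -0.04 in NTC (95% interval -0.35 to 0.27, edgeR adjusted p = 0.845), while with library size alone it was 0.44 (edgeR adjusted p = 0.0434; over the alternatives 0.0434 to 0.99). In sgBap1 livers it was 0.13 (edgeR adjusted p = 0.445), and 0.62 with library size alone (0.00833; over the alternatives 0.00833 to 0.886). Between genotypes, Rspo3 was higher in every sgBap1 liver than in every NTC liver, and edgeR called neither the vehicle nor the CCl4 difference. Of all tested genes, 40.9% with vehicle and 20.3% with CCl4 did not overlap between genotypes. Wnt2 and Wnt9b, the central vein ligands, were low, at 1.43 to 3.26 CPM and 0.524 to 3.63 CPM over the 10 livers, where the highest Wnt9b value is that of sgBap1-CCl4 replicate 2 and the next 1.72 CPM, with CCl4 log2 fold changes in NTC of 0.00 (-0.84 to 0.85) and 0.49 (-1.20 to 2.17), intervals that hold changes of either sign.

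Of 10 receptor genes, 5 fell in NTC and 7 in sgBap1 livers after CCl4, and 0 rose (medians -0.48 and -0.48), beside the 26.3% and 27.7% of all tested genes called lower. This direction held relative to all genes only, since with library size alone 3 were called lower in each genotype and 3 and 2 higher (medians -0.01 and -0.00225). On that scale 8462 and 8596 of all tested genes were called higher in NTC and sgBap1 livers, and 2030 and 2350 lower. Over all alternatives the receptor calls in NTC livers ran from 3 to 6 lower and 0 to 3 higher. In sgBap1 livers they ran from 3 to 7 lower and 0 to 2 higher. Lgr4, an R-spondin receptor like Lgr5, fell with a log2 fold change of -1.07 and -0.98, and the frizzled receptor gene Fzd8 with -2.52 and -2.39. Rnf43 and Znrf3, which remove frizzled from the membrane, fell with -1.11 and -0.75 in NTC livers, and the Znrf3 call was lost with library size alone (-0.29, edgeR adjusted p = 0.135; over the alternatives 5.47e-05 to 0.247). With CCl4, Fzd7 was the 1 of 10 receptor genes called between genotypes, where 0.253% of all tested genes were called. It was at 17.3, 16.6 and 15.9 CPM in NTC and 9.67, 9.62 and 10.2 CPM in sgBap1 livers (log2 fold change -0.76, SE 0.10, edgeR adjusted p = 0.0249, over the alternatives 6.76e-07 to 0.221). That call was lost without any 1 of the NTC-CCl4 mice (0.132, 0.0632 and 0.0744) or sgBap1-CCl4 replicate 1 or 2 (0.0962 and 0.0592), and its interaction was -0.46 (edgeR adjusted p = 0.335). Of 16 transducers, 2 fell and 0 rose in NTC livers, and 3 fell and 3 rose in sgBap1 livers (3 and 2 without sgBap1-CCl4 replicate 2). With library size alone 9 and 10 transducers were called higher and 0 lower, beside 8462 and 8596 of the 17015 genes called higher on that scale. Over all alternatives they ran from 0 to 2 lower and 0 to 9 higher in NTC and 0 to 3 lower and 0 to 10 higher in sgBap1 livers. The shares that fell are under those of all tested genes. Ctnnb1, which encodes beta-catenin, had a log2 fold change of 0.20 in NTC (edgeR adjusted p = 0.104, over the alternatives 0.000562 to 0.249) and 0.29 in sgBap1 livers (edgeR adjusted p = 0.0276), with an interaction of 0.09 (edgeR adjusted p = 0.886). In NTC livers it was called higher by DESeq2's Wald test (0.0353), with library size alone (0.68, edgeR adjusted p = 0.000562) and on the hepatocyte scale (0.70, 0.00377). In sgBap1 livers the Ctnnb1 call was lost with only the 2 groups compared (edgeR adjusted p = 0.0787) and with the replicate block (0.0584). The sgBap1 value was not called without sgBap1-CCl4 replicate 1 (0.0798) or sgBap1-Veh replicate 2 (0.18), with a range of 0.000217 to 0.18. Of the 6 tested feedback and target genes, 3 fell in each genotype, Notum, Sp5 and Nkd1, while with library size alone 2 were called lower and 2 higher in each, and over all alternatives 2 to 3 lower and 0 to 2 higher in NTC and 2 to 4 lower and 0 to 2 higher in sgBap1 livers. The Nkd1 call was lost with library size alone (-0.16, edgeR adjusted p = 0.508 in NTC and -0.15, 0.534 in sgBap1 livers), on the hepatocyte scale (0.634 and 0.382), without NTC-Veh replicate 2 in NTC (0.067) and without sgBap1-Veh replicate 1 in sgBap1 livers (0.144), with ranges of 0.00371 to 0.634 and 0.00345 to 0.534. Sp5 was a very low gene, at 0.674 to 1.72 CPM in the vehicle livers. After CCl4 it was at 0.0213 to 0.132 CPM, around the level of 3 counts, so the size of its fall is uncertain. Notum, a secreted Wnt deacylase, was at 62.3 and 53.2 CPM in the NTC-Veh mice, 53.9 and 48.8 CPM in the sgBap1-Veh mice, 9.98, 12.5 and 10.6 CPM in the NTC-CCl4 mice and 9.84, 6.402 and 10.97 CPM in the sgBap1-CCl4 mice, lower after CCl4 with a log2 fold change of -2.39 in NTC (SE 0.19, edgeR adjusted p = 7.96e-06) and -2.50 in sgBap1 livers (SE 0.19, edgeR adjusted p = 6.06e-06). Ccnd1, which rose in NTC livers, had 0.59 there (0.41 and edgeR adjusted p = 0.095 without NTC-Veh replicate 2; range 0.000133 to 0.095) and 0.09 in sgBap1 livers (edgeR adjusted p = 0.636; 0.57 and 0.00629 with library size alone; range 0.00629 to 0.975), with an interaction of -0.50 (edgeR adjusted p = 0.444). Dkk3, a secreted protein of the dickkopf family, rose in sgBap1 livers with 1.17 (edgeR adjusted p = 0.0248), against 0.60 in NTC livers (0.21; 1.07 and 0.044 with library size alone; range 0.044 to 0.559) and an interaction of 0.57 (edgeR adjusted p = 0.787). The Dkk3 call was lost by limma-voom (0.0557) and without sgBap1-CCl4 replicate 2 (0.0637) or either sgBap1-Veh mouse (0.146 and 0.0691), with a range of 0.00448 to 0.146.

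Markers of other cell types also changed after CCl4, with more of them called higher than lower. Their part in the falls of the pericentral genes was not tested. Sums are given for the vehicle livers of NTC and sgBap1 mice first and then for the CCl4 livers of each, and the most abundant gene is that of the group means. The counts of genes that rose stand beside 27.5% and 29.0% of all tested genes called higher in NTC and sgBap1 livers. Those with library size alone stand beside 8462 and 8596 of all tested genes called higher on that scale. The sum of 8 Kupffer cell and macrophage genes was 197 to 313, 409 to 615, 625 to 1079 and 619 to 843 CPM, with Cd5l most abundant except in NTC-CCl4 livers (Marco). Of these genes, 5 rose in NTC livers, and in sgBap1 livers 3 rose and 2 fell, which without sgBap1-CCl4 replicate 2 became 2 and 1. With library size alone the calls were 6 higher and 0 lower in NTC and 4 and 1 in sgBap1 livers, and over all alternatives 0 lower and 5 to 6 higher in NTC and 1 to 2 lower and 1 to 4 higher in sgBap1 livers. The sum of 6 monocyte and neutrophil genes was 16.9 to 25.2, 36.8 to 38.9, 137 to 160.0 and 129 to 167 CPM, with Ptprc most abundant, and all 6 rose in both genotypes. The sum of 7 stellate cell genes was 226 to 271, 264 to 293, 436 to 544 and 428 to 930.1 CPM, with Dcn most abundant, and 5 rose in NTC and 4 in sgBap1 livers, against all 7 in both with library size alone (4 to 7 and 4 to 7 over all alternatives). The highest of these sums is that of sgBap1-CCl4 replicate 2, the liver rich in fat cell genes, and the other sgBap1-CCl4 livers were at 506 and 428 CPM. The sum of 7 endothelial genes was 164 to 178, 173 to 239, 219.6 to 266 and 223 to 263 CPM, with Stab2 most abundant in NTC-Veh, Clec4g in sgBap1-Veh and Cdh5 in CCl4 livers. Of these, 4 rose in NTC livers, and 3 rose and 2 fell in sgBap1 livers. The 2 falls depended on the setting. With library size alone the calls were 5 higher and 0 lower in NTC and 4 and 0 in sgBap1 livers, on the hepatocyte scale 5 higher and 0 lower in NTC and 3 and 0 in sgBap1 livers, and 3 higher and 0 lower in sgBap1 livers without sgBap1-CCl4 replicate 2. Over all alternatives they ran from 0 lower and 3 to 5 higher in NTC and 0 to 3 lower and 3 to 4 higher in sgBap1 livers. The 4 bile duct genes summed to 4.46 to 7.81, 6.24 to 6.699, 11.9 to 17.4 and 11.97 to 17.8 CPM, with Sox9 most abundant and the 1 called. The 4 proliferation genes, led by Pcna in vehicle and Mki67 in CCl4 livers, summed to 30.9 to 31.8, 42.2 to 46.6, 189.96 to 323 and 234 to 306 CPM, and all 4 rose in both genotypes. No gene of these lists was at 3 counts or fewer in every liver. Between genotypes with vehicle, 2 genes of these lists, Csf1r and Ptprc, were called higher in sgBap1 livers by edgeR (adjusted p = 0.048 and 0.0393), against 10 by DESeq2's Wald test and 0 by limma-voom, tools that called 0.523%, 3.64% and 0.147% of all genes here. The Csf1r call was lost in 12 of 19 alternatives, among them the removal of any 1 of the NTC mice, sgBap1-CCl4 replicate 1 or 3 or sgBap1-Veh replicate 1, and the Ptprc call in 10, among them the removal of NTC-CCl4 replicate 1 or 2, NTC-Veh replicate 2, sgBap1-CCl4 replicate 1 or 3 or either sgBap1-Veh mouse (ranges of 2.57e-05 to 0.262 and 1.92e-05 to 0.172). Their interactions were -1.07 and -1.17 (edgeR adjusted p = 0.121 and 0.0793), called by DESeq2's Wald test at 0.0034 and 0.000502 and for Ptprc also without a filter (0.0286), with ranges of 0.0034 to 0.335 and 0.000502 to 0.238. For the interaction DESeq2 called 3 of the Kupffer cell and macrophage genes and 3 of the monocyte and neutrophil genes, all below 0, where it called 2.7% of all genes, and edgeR and limma-voom called 0 of these lists.

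The genes with the most similar profiles were found for each of the 10 by the Euclidean distance between log2 CPM values centred on their mean over the 10 livers, among 12018 tested genes whose mean count reached 100. Gulo had the closest, Aqp9 at a distance of 0.273, Entpd8 at 0.44 and Rdh16f2 at 0.454. Oat was nearest to Lhpp (0.666), Macrod1 and 1700028E10Rik, and Rhbg to Cyp2c39 (0.729), Gm32063 and BC024139. Cyp1a2 was nearest to Dedd2 (0.801), Proser2 and Sdhb, and Tbx3 to Gm15318 (0.896), BC024139 and Nr1h5. Lgr5 was nearest to Gm20634 (0.942), Sorbs3 and Proser2, and Axin2 to Car14 (1.09), Fzd8 and Slc16a11. Distances were larger for the genes with the deepest falls. Cyp2e1 was nearest to Bhmt (1.62), Gm5096 and Rgs16, Glul to Acss3 (1.703), Gm22146 and Acot3, and Slc1a2 to Sult3a1 (2.35), Gm13775 and Hamp2.

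Overlap and shared sequence limit some of these counts. Glul shares 11.9% of its 50-base stretches, most of them with the pseudogene Glns-ps1, which was at 3.63 CPM or less, and Cyp1a2 shares 4.79%, most with Cyp1a1, at 1.78 CPM or less. Cyp2e1 shares 3.87%, Lgr5 0.647% and Slc1a2 0.38%. The main partner of Cyp2e1, Fcho2, was at 35.2 to 51.4 CPM, that of Lgr5, Vmn1r218, at 0 in all 10 livers, and that of Slc1a2, Clasp1, at 12.5 to 25.7 CPM. Oat, Axin2, Tbx3 and Gulo share 0%. On the same strand, Oat overlaps Fgfr2, which was at 27.1 to 61.3 CPM, and Glul overlaps Mir8114, at 0.0188 CPM or less. Genes on the other strand overlap Glul (Teddm2), Slc1a2 (Gm13872), Axin2 (Gm11670), Lgr5 (A930009A15Rik) and Tbx3 (Tbx3os1), and whether the counting used strand is not given in the sources used here. Of these partners, Tbx3os1 reached 21.8 CPM, Teddm2 3.37 CPM and Gm13872 0.0545 CPM, and Gm11670 and A930009A15Rik were at 0 in all 10 livers.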

How the data were processed

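The authors aligned stranded paired reads of 50 bases to GRCm38 with STAR 2.7.6a and estimated gene counts with Salmon 1.4.0 and GENCODE vM25. The authors deposited the estimated counts per gene symbol (expected counts), without normalization, and 9.22% of them were not whole. Rounded counts went into edgeR 4.0.16 under R 4.3.3: filterByExpr on the 4 groups, TMM, 1 quasi-likelihood model of all 10 mice with robust glmQLFit, and Benjamini-Hochberg adjustment over the 17015 genes kept, at a threshold of 0.05, two-sided. Standard errors are the log2 fold change divided by the square root of F, and intervals are at 95%. Every mouse is a separate animal.

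Alternatives were DESeq2 size factors, library size alone, no filter beyond 1 count, a mean of at least 10 counts, DESeq2 1.42.0 (Wald test), limma-voom (limma 3.58.1), a replicate block, only the 2 groups compared, each mouse left out in turn, and exon against longest transcript length. A scale set by 10 hepatocyte genes was added after seeing the data. Positions, lengths and shared stretches of 50 bases come from GENCODE vM21, as vM25 was not used here, and promoters from RefSeq on GRCm38.p6. The fits were also run on simulated data, whose outcome is not given here, and no result above rests on it.

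The pericentral genes and all lists were chosen with earlier results of these data known. Named genes are the 10, Bap1, up to 4 genes of each list with the smallest adjusted p, Wnt2, Wnt9b, Rspo3, Ctnnb1, Por, Alb, Adipoq and Plin1, the most abundant gene of each marker list, and the 3 nearest profiles of each of the 10. Genes that overlap or share sequence were taken from the annotation. Genes named for a short count were chosen after their values were seen. The HNF1 half-site was searched after the matches of the other motifs were known.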

Additional observations from a re-analysis of the deposited data

Results flagged for a closer look

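The levels of Lgr5 did not overlap between genotypes, in opposite directions with vehicle and with CCl4. With vehicle, both sgBap1 livers were below both NTC livers, and with CCl4 all 3 sgBap1 livers were above all 3 NTC livers. Neither difference passed by edgeR (adjusted p = 0.272 with vehicle and 0.172 with CCl4). Over all alternatives the vehicle value ran from 0.153 to 0.685 and was never called, and the CCl4 value ran from 0.042 to 0.474 and was called by DESeq2's Wald test alone. The difference between these effects was 1.54 on the log2 scale and did not pass the edgeR interaction test (adjusted p = 0.13), while DESeq2's Wald test called it (adjusted p = 0.00565), with a range over all alternatives of 0.00565 to 0.338. Such a reversal without overlap was seen in 1 of the 10 genes and in 456 of the 17015 tested, 2.68%.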

How the results depend on the processing

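Over 19 alternatives to each fit (18 for the interaction), the number of the 10 genes called with CCl4 was 9 or 10 in NTC and 8 to 10 in sgBap1 livers. Between genotypes it was 0 with vehicle under all of them. With CCl4 it was 0 except 2 under DESeq2's Wald test, and for the interaction 0 except 1 under DESeq2. Counts over all genes with CCl4 stayed within 1.5 times of 9151 in NTC and 9656 in sgBap1 livers.

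Against 89 genes called between genotypes with vehicle, there were 47 with library size alone, 177 without a filter, 548 by DESeq2's Wald test, 25 by limma-voom, 35 from only the 2 groups and 253 on the hepatocyte scale added after seeing the data, and from 0 to 150 without a mouse, each of the 10 moving the count by over 1.5 times. Against 43 with CCl4, there were 113 without a filter and 480 by DESeq2, and 1 to 49 without a mouse. Against 0 for the interaction, there were 8 with library size alone, 103 without a filter, 406 by DESeq2 and 10 on the hepatocyte scale, and 0 to 12 without a mouse. A lone mouse left in a vehicle group was assumed to vary like the other groups. The hepatocyte scale moved the median of all genes by 0.49 in NTC and 0.36 in sgBap1 livers with CCl4, and by 0.29 between genotypes with vehicle and 0.15 with CCl4, and by -0.13 for the interaction. The cause of these differences was not tested.

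The replicate block gave 1 call with vehicle, 3 with CCl4 and 0 for the interaction. The numbers are only names here: deviations of same-numbered mice from their group means correlated at r = -0.149 to 0.102 over 13 pairs.

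Where the log2 fold change of 1 of the 10 genes changed sign, it was short of the threshold before and after. With vehicle, Cyp1a2 was -0.0814 to 0.447 without a mouse (sign changed without NTC-Veh replicate 2 and sgBap1-Veh replicate 1). Glul was 0.0286 on the hepatocyte scale. Rhbg was -0.514 to 0.0755 without a mouse (sign changed without sgBap1-Veh replicate 1) and 0.0949 on the hepatocyte scale. Slc1a2 was 0.113 on the hepatocyte scale. Tbx3 was -0.633 to 0.326 without a mouse (sign changed without NTC-Veh replicate 2) and 0.0186 on the hepatocyte scale. With CCl4, Glul was -0.537 to 0.525 without a mouse (sign changed without sgBap1-CCl4 replicate 2) and -0.051 by limma-voom. For the interaction, Cyp1a2 was -0.0988 to 0.493 without a mouse (sign changed without NTC-Veh replicate 1, sgBap1-Veh replicate 2, NTC-CCl4 replicate 1 and sgBap1-CCl4 replicate 2). Glul was -0.274 to 0.789 without a mouse (sign changed without sgBap1-CCl4 replicate 2). Oat was -0.343 to 0.185 without a mouse (sign changed without NTC-Veh replicate 2 and NTC-CCl4 replicate 2). Tbx3 was -0.934 to 0.0242 without a mouse (sign changed without NTC-Veh replicate 1). Gulo was -0.226 to 0.274 without a mouse (sign changed without sgBap1-Veh replicate 1 and sgBap1-CCl4 replicate 3) and -0.067 on the hepatocyte scale.

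Groups of 2 or 3 mice limit the genotype comparisons. Slc1a2 rests on 17 to 53 counts in each CCl4 liver. With the longest transcript as length, Lgr5 in NTC-Veh livers was at 2.58 in place of 1.21 CPM per kb. Cyp2e1 (5316 in place of 4516), Glul (599 in place of 503) and Axin2 (3.16 in place of 2.45) also rose there by more than their SD. By that length Tbx3 (7.54) stood above Rhbg (6.73) in NTC-Veh livers, and Cyp2e1 (101) above Gulo (91.6) in NTC-CCl4 livers.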
